A study of Mus musculus with 8 samples.

Results

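The genes described here are 10 of the p53 pathway: the gene of p53 itself (Trp53) and 9 that p53 is known to switch on, leaving out the Bcl2 family of death regulators. They were listed by symbol, and each was represented by its single-gene probe set (the group of array probes that reports 1 gene) of highest mean over the 8 arrays. Of the 10, 8 were measured in this way among the 19938 genes of the table: Mdm2, Ccng1, Trp53inp1, Sesn1, Phlda3, Zmat3, Tnfrsf10b and Aen, each by 1 probe set. Trp53 had no probe set in the annotation used and is not analysed here. Cdkn1a, which encodes the cell cycle inhibitor p21, shared its 1 probe set with another gene and was given no value.

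RNA came from thymus lobes of C57BL/6NTac mice 8 weeks old, with 1 Affymetrix array per mouse. The 4 spaceflight mice spent 13 days on the shuttle, and the 4 ground-control mice, of the same age, were kept in the same kind of enclosure on the ground. The labels name no mutant allele and no drug, and both groups share the strain, the tissue and the housing type. A lobe is a mixture of thymocytes, epithelium, blood vessels and any attached fat, so fewer cells of a type and less RNA per cell cannot be told apart in any value below. Control means of the 9 measured markers of double-positive thymocytes, the most numerous thymus cells, ran from 6.57 ± 0.17 (Ptcra) to 12.47 ± 0.16 (Rag1). Cd8a was at 11.90 ± 0.08 (all log2, mean ± SD, n = 4).

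The protein p53 is a transcription factor that is held at a low level by Mdm2 and is released by DNA damage and other stresses. It then raises genes that stop the cell cycle, temper growth signals, repair damage or kill the cell, and it raises Mdm2 as well, which closes a feedback loop. Thymocytes are among the cells most readily killed through p53 after irradiation, and many of the genes below are used as readouts of that response.

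Before the results, the arrays themselves need a description. Spaceflight replicates 1 and 3 had a narrower spread of log2 values (interquartile range 2.43 in both) than the other arrays (2.68 to 2.95). These ranges are over the 28943 probe sets left after controls were removed. Among the 19938 genes, the median difference between groups (spaceflight minus ground control) was 0.10 in the dimmest 6646, -0.04 in the middle 6646, which held Aen, Tnfrsf10b and Zmat3, and -0.13 in the brightest 6646, which held the other 5 measured members. Without spaceflight replicates 1 and 3 these medians were -0.02, -0.02 and 0.00.

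p53 binds pairs of a 10-base motif, the p53 decamer, which reads the same on both strands. RefSeq promoter windows of build GRCm38.p6, from 250 bases before to 50 after each gene's start, were at hand for 7 of the 10 genes, in 10 windows. The windows of Phlda3, the gene with the largest difference below, and of Mdm2, the feedback gene, are shown to place that motif, with a decamer in capitals where there is one. The Phlda3 window lies on the plus strand at chr1:135765835-135766134 and the Mdm2 window on the minus strand at chr10:117710709-117711008.
Phlda3: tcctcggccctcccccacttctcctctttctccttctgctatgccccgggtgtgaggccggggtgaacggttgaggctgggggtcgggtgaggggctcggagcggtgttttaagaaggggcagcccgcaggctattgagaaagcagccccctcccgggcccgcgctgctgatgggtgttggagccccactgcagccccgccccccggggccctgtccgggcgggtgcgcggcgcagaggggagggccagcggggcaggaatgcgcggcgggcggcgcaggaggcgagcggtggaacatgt
Mdm2: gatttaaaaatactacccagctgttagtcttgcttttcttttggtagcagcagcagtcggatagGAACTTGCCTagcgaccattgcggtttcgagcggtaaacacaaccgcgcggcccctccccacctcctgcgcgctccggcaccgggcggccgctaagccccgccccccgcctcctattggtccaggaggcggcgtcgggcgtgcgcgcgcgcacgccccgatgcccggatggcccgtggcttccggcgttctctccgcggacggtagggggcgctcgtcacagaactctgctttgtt
The Mdm2 window held 1 decamer, whose first base is at position -186 from the start. The Phlda3 window held none, although its last 8 bases are those with which a decamer can begin. The other decamers are given because they belong to genes whose values follow, with the position of the first base from the start.
Ccng1 at -185: GGGCAAGCCT
Aen at -121 from the downstream of its starts: GGGCTTGTCC
Sesn1 at -173 from one of its starts: AAGCTTGTTT
Of all 32851 promoter windows in the table, 8.36% held a decamer. A match in these letters is not a measured binding site.

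None of the 8 measured genes passed the test for a difference between spaceflight and ground control, although 7 of the 8 had a lower mean after the flight (53.5% of all genes did). The genes farthest from 0 were Phlda3, an inhibitor of the growth kinase Akt, at 1.75-fold lower, Zmat3, an RNA-binding zinc finger protein, at 1.34-fold lower, and Tnfrsf10b, the death receptor for the ligand TRAIL, at 1.32-fold lower. Sesn1, which restrains growth signalling through mTORC1, was the single gene with a higher mean. By limma, with Benjamini-Hochberg adjustment over all genes and a threshold of 0.05, 0 of the 8 were called, against 0.0802% of all genes. At an unadjusted limma p under 0.05 there were 3 lower genes (Phlda3, Zmat3 and Tnfrsf10b), against 7.38% of all genes, and 0 higher genes, against 3.43%. In 4 of the 8 (the same 3 and Mdm2) every spaceflight mouse was below every control mouse, a pattern found in 4.28% of all genes, and in 0 of the 8 every spaceflight mouse was above, against 1.73%. The median difference over the 8 was -0.21 on the log2 scale, against -0.02 over all genes. The members were chosen with earlier results of these data in view, so these counts describe them and test nothing.

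**Figure D1:**
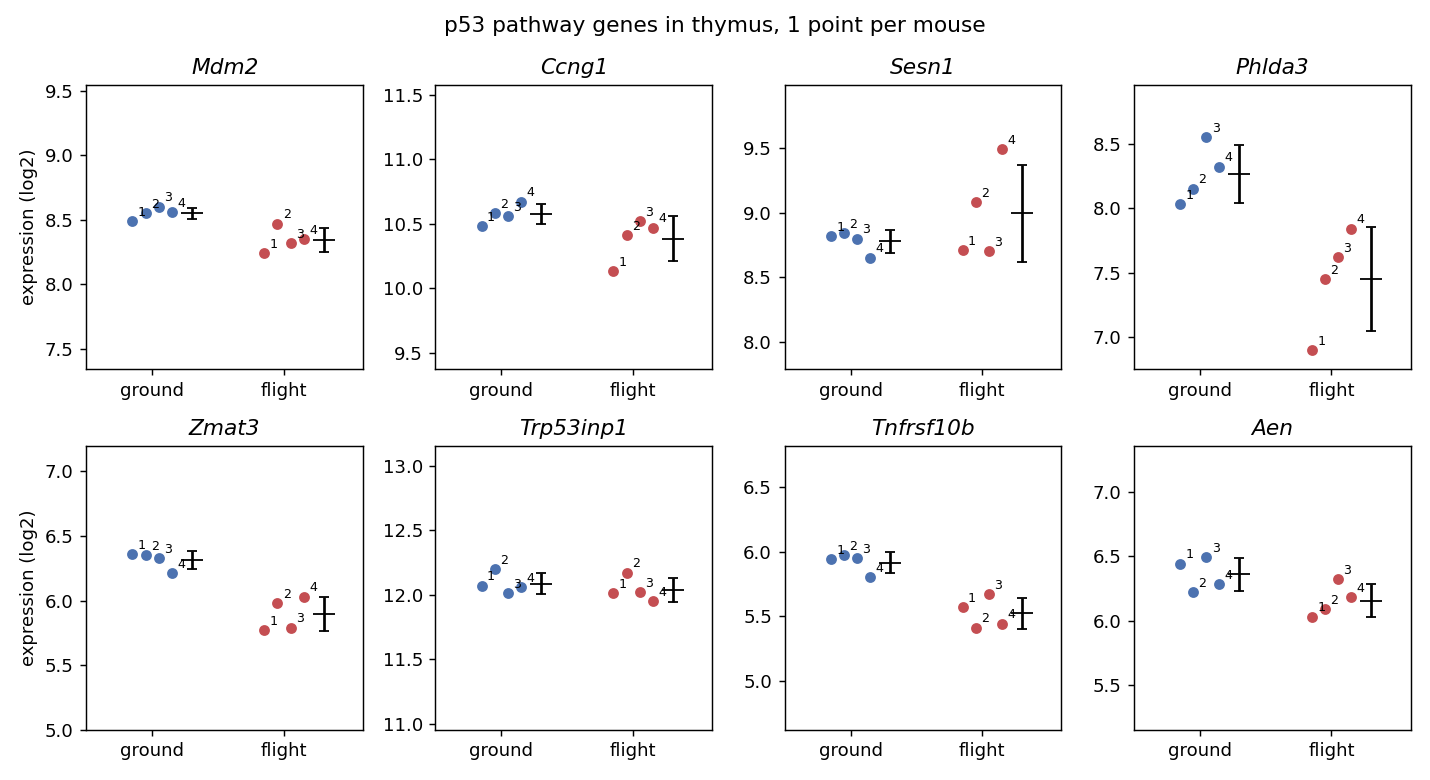
Expression (log2, vertical axis, each panel spanning the same range of log2 units) of the 8 measured p53 pathway genes in each mouse, with numbers giving the replicate and black bars the mean ± SD of 4 mice. The groups do not overlap for Mdm2, Phlda3, Zmat3 and Tnfrsf10b, and Sesn1 is spread widely among the flown mice.

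The first genes are those that act back on p53. Mdm2, the ubiquitin ligase that marks p53 for destruction, read 8.24, 8.47, 8.32 and 8.35 in spaceflight replicates 1 to 4 and 8.49, 8.55, 8.60 and 8.56 in ground-control replicates 1 to 4 (all log2 levels). All flown mice were below all controls, with only 0.02 between the highest flown mouse and the lowest control. The difference was -0.20 ± 0.10 (log2 difference ± SE, limma adjusted p = 0.473), with a 95% interval from -0.42 to 0.02. The gap depended on the scaling. The groups of Mdm2 overlapped when arrays were centred on their 75th percentiles, where its difference was -0.06, and after repeated quantile normalization or cyclic loess normalization.

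Ccng1, cyclin G1, which partners a phosphatase that acts on Mdm2, read 10.13, 10.41, 10.52 and 10.47 in the flown mice and 10.48, 10.58, 10.56 and 10.67 in the controls (log2 levels). The groups overlapped by 1 flown mouse, replicate 3, and spaceflight replicate 1 stood lowest. The difference was -0.19 ± 0.12, with an interval from -0.44 to 0.06 (limma adjusted p = 0.525). Trp53inp1, a stress-induced nuclear protein that promotes p53 activity, read 12.01, 12.17, 12.02 and 11.95 against 12.07, 12.20, 12.01 and 12.06. The flown and control mice covered nearly the same range. Its difference of -0.05 ± 0.10 had an interval from -0.28 to 0.18 (limma adjusted p = 0.853), whose farther end is a 1.21-fold lower level, and its sign turned under 3 scalings (0.01 to 0.09).

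The next genes temper growth signals or act on RNA. Phlda3 encodes a small protein with little more than a pleckstrin homology domain, which competes with Akt for membrane lipids. Its log2 levels were 6.90, 7.45, 7.62 and 7.84 in spaceflight replicates 1 to 4 and 8.03, 8.15, 8.55 and 8.32 in ground-control replicates 1 to 4. All flown mice were below all controls, by 0.19 at the closest, and replicate 1 was far below the rest. The group means were 7.45 ± 0.40 and 8.26 ± 0.23 (SD, n = 4 each), a difference of -0.81 ± 0.19 with an interval from -1.22 to -0.40 (limma adjusted p = 0.18). In terms of fold that interval runs from 1.32 to 2.33 times lower. Without spaceflight replicate 1 the difference was -0.63, and without replicates 1 and 3 it was -0.62 (limma adjusted p = 0.239 and 0.368, within a range of 0.0821 to 0.516 over all alternatives).

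Zmat3, also known as Wig-1, binds messenger RNA and alters its stability and splicing. It read 5.77, 5.98, 5.79 and 6.03 in the flown mice and 6.36, 6.35, 6.33 and 6.21 in the controls (log2 levels). The groups did not overlap, and 3 of the 4 controls lay between 6.33 and 6.36. The difference was -0.42 ± 0.11, with an interval from -0.65 to -0.18 (limma adjusted p = 0.246). Spaceflight replicates 1 and 3 were the lowest mice, and without them the difference was -0.30 (adjusted p = 0.56, within a range of 0.154 to 0.603).

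Sesn1, sestrin 1, read 8.71, 9.08, 8.70 and 9.49 in the flown mice against 8.82, 8.84, 8.80 and 8.65 in the controls (log2 levels). Flown replicates 2 and 4 were above every control, while replicates 1 and 3 were among the control values. The SD was 0.38 in flight and 0.09 on the ground. The difference of 0.22 ± 0.17 had an interval from -0.14 to 0.58 (limma adjusted p = 0.594). It was 0.51 without spaceflight replicates 1 and 3 and 0.05 without replicate 4 (adjusted p = 0.349 and 0.841, within a range of 0.349 to 0.85). After 75th percentile centring, repeated quantile normalization or cyclic loess normalization every flown mouse was above every control. Under those scalings 3.66%, 2.97% and 2.91% of all genes, in that order, had this pattern, against 1.73% as reported.

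The last genes act in cell death. Tnfrsf10b, the receptor through which TRAIL starts apoptosis in the mouse, read 5.57, 5.41, 5.67 and 5.44 in the flown mice and 5.94, 5.97, 5.95 and 5.80 in the controls (log2 levels). The groups did not overlap, and here spaceflight replicates 1 and 3 were the highest of the flown mice. The difference was -0.40 ± 0.11, with an interval from -0.63 to -0.16 (limma adjusted p = 0.256). Without replicates 1 and 3 it was -0.49 (adjusted p = 0.205, within a range of 0.124 to 0.629). Aen, a nuclease that digests DNA in dying cells, read 6.03, 6.09, 6.32 and 6.18 against 6.44, 6.22, 6.49 and 6.28. The groups overlapped, with flown replicate 3 above control replicates 2 and 4. The difference was -0.21 ± 0.11, with an interval from -0.45 to 0.04 (limma adjusted p = 0.5).

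**Figure D2:**
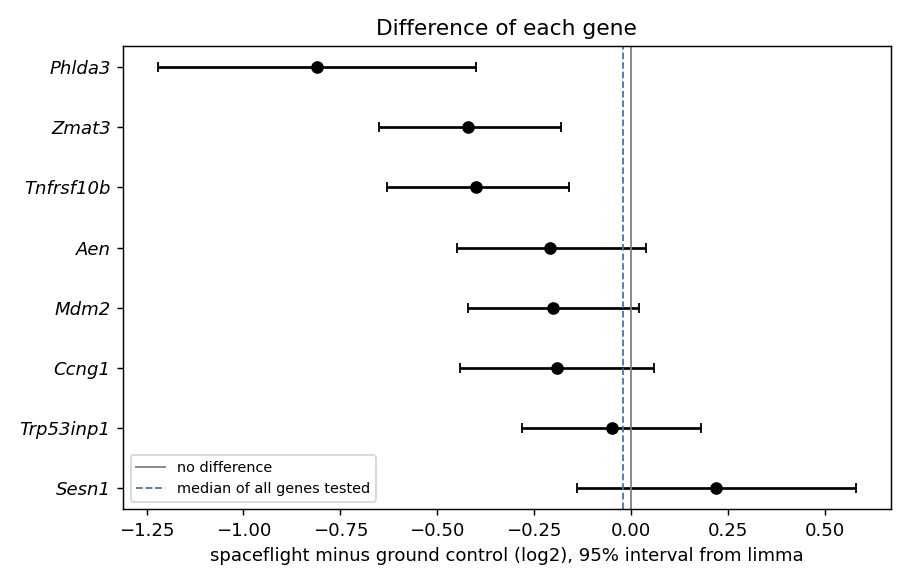
Spaceflight minus ground control (log2, horizontal axis) for each of the 8 genes, with points for the limma estimate, bars for its 95% interval, a grey line at 0 and a dashed line at the median of all genes (-0.02). The unadjusted intervals of Phlda3, Zmat3 and Tnfrsf10b lie below 0 and those of the other 5 genes include it.

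An exact two-sided permutation test over the 70 ways of assigning 8 mice to groups of 4 was run for each gene alone. For Mdm2, Phlda3, Zmat3 and Tnfrsf10b it reached 0.029, the smallest p that this design allows (adjusted over all genes, exact permutation p = 0.476). Any gene whose groups do not overlap gets that p, so this restates the earlier count (4.28% of all genes lower and 1.73% higher). The same test gave exact p = 0.0571 for Ccng1, 0.0857 for Aen, 0.371 for Sesn1 and 0.4 for Trp53inp1. The median SD within groups was 0.12 for the 8 genes and 0.19 for all genes, so most of these genes were measured with less spread than a typical gene. Phlda3 (0.33) and Sesn1 (0.27) were the members with more. Spaceflight replicate 1 was the lowest of all 8 mice for 5 of the 8 genes. Its array, like that of replicate 3, had a narrower spread of log2 values than the others. The share of all genes with that mouse lowest was not computed, so the count is not a trait of these genes.

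Under the other scalings the count of 4 non-overlapping lower genes was 4 with median centring, 2 with 75th percentile centring and 3 with repeated quantile or cyclic loess normalization. Phlda3 and Zmat3 did not overlap under any of these. The share of all genes that were lower without overlap ranged from 2.09% to 3.51% under these scalings, against 4.28% as reported.

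**Figure D3:**
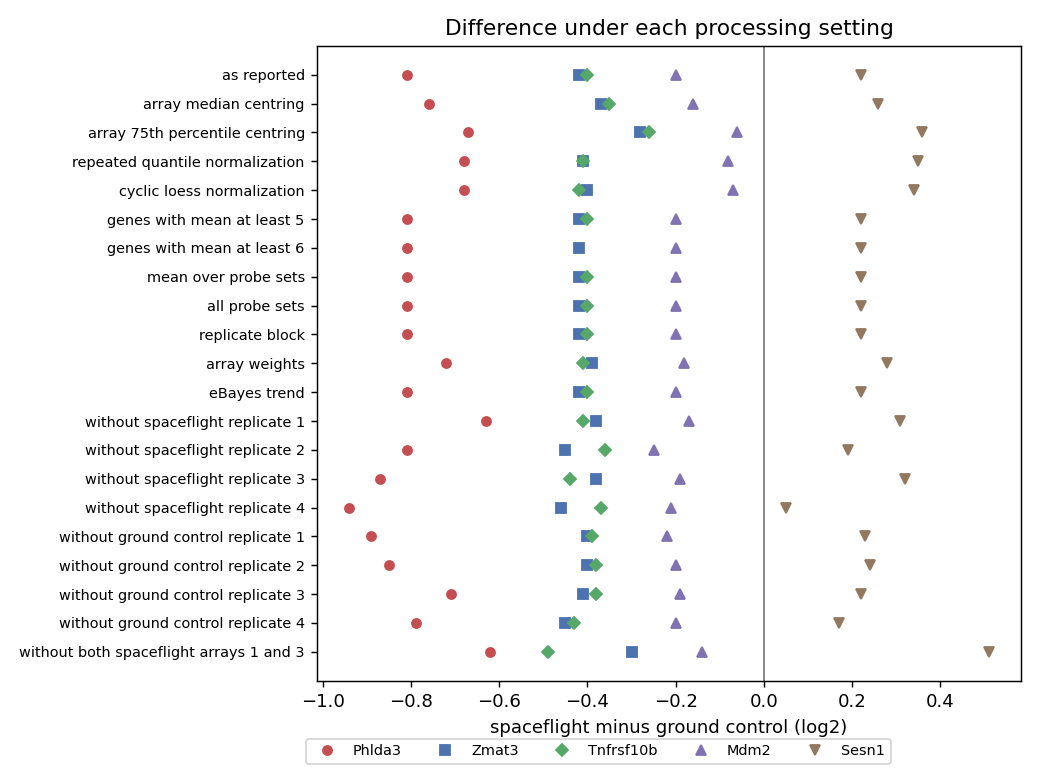
Spaceflight minus ground control (log2, horizontal axis) for Phlda3, Zmat3, Tnfrsf10b, Mdm2 and Sesn1 under the reported setting and each alternative that gave a value (vertical axis). Every point of the first 4 genes lies below 0 and every point of Sesn1 above it, with Mdm2 closest to 0 at -0.06 under 75th percentile centring.

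The rest of the pathway was taken from lists of further p53 targets, of p53 regulators and of cell cycle genes. Of 38 measured further targets outside the Bcl2 family, 25 had a lower and 13 a higher mean (53.5% of all genes were lower), and 0 passed limma in either direction. At an unadjusted limma p under 0.05 there were 3 lower genes (7.38% of all genes) and 0 higher (3.43%). Their median difference was -0.07. It was 0.08 without spaceflight replicates 1 and 3, with 13 of 38 lower, and 0.01 with cyclic loess normalization. The farthest was Sfn, 14-3-3 sigma, which p53 uses to hold cells before mitosis and which epithelium makes in quantity. Sfn went from 8.21 ± 0.29 on the ground to 7.59 ± 0.18 in flight (log2, SD, n = 4), a difference of -0.62 ± 0.15 (limma adjusted p = 0.203). Sfn was the 1 gene of this list with every flown mouse below every control (4.28% of all genes). Ercc5, a nuclease of DNA excision repair, was the 1 gene with every flown mouse above (1.73% of all genes), at 7.68 to 7.77 against 7.41 to 7.66, a difference of 0.18 ± 0.10 (limma adjusted p = 0.507). Spata18, which acts in mitochondrial quality control, differed by -0.57 ± 0.21 and the adenylate kinase gene Ak1 by -0.44 ± 0.20 (limma adjusted p = 0.397 and 0.456). Ckap2, a spindle protein, differed by 0.32 ± 0.16 (adjusted p = 0.477). Gadd45a (-0.04), Sesn2 (-0.03), Perp (-0.05) and Eda2r (0.04) were close to 0, and were singled out after their values were seen. Others of the list, such as Ei24 (-0.30), Rps27l (-0.30) and Fas (0.17), were farther from 0, and were picked in the same way.

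Among 20 regulators of p53, 13 had a lower and 7 a higher mean (53.5% of all genes were lower), and 0 passed limma. At an unadjusted limma p under 0.05 there were 2 lower genes (7.38% of all genes) and 0 higher (3.43%). Their median was -0.08, against -0.04 without spaceflight replicates 1 and 3 and 0.00 with cyclic loess normalization. The groups of every regulator overlapped. Of all genes, 4.28% had every flown mouse below every control and 1.73% every flown mouse above. Chek1, the checkpoint kinase of stalled replication, was the farthest at -0.58 ± 0.15 (limma adjusted p = 0.246). Hipk2, a kinase that phosphorylates p53 in the death response, differed by -0.38 ± 0.15, the DNA-dependent protein kinase Prkdc by -0.22 ± 0.13 and the ubiquitin ligase Cop1 by -0.18 ± 0.11 (limma adjusted p from 0.412 to 0.529). Mdm4, the partner of Mdm2 in restraining p53, differed by 0.05 ± 0.14, and was picked out after its value was seen.

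When p53 is active, p21 lowers many cell cycle genes through the DREAM repressor complex. Of 19 such genes measured, 13 had a higher and 6 a lower mean (53.5% of all genes were lower), and 0 passed limma. At an unadjusted limma p under 0.05 there were 3 higher genes (3.43% of all genes) and 2 lower (7.38%). The mitotic phosphatase Cdc25c differed by 0.48 ± 0.14, the mitotic cyclin Ccnb2 by 0.42 ± 0.16 and the centromere histone Cenpa by 0.31 ± 0.13, while Mcm2, of the replication helicase, differed by -0.41 ± 0.14 (limma adjusted p from 0.309 to 0.444). Cdc25c was the 1 gene of the list with every flown mouse above every control (1.73% of all genes). In 0 genes of the list was every flown mouse below every control (4.28% of all genes). The list median was 0.09 with all mice, 0.12 without spaceflight replicates 1 and 3 and 0.20 with cyclic loess normalization. Its mean level was 8.83 and 8.84 in flown replicates 1 and 2 but 8.25 and 8.33 in replicates 3 and 4, so the flown mice lay on both sides of the controls (8.37 to 8.60).

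**Figure D4:**
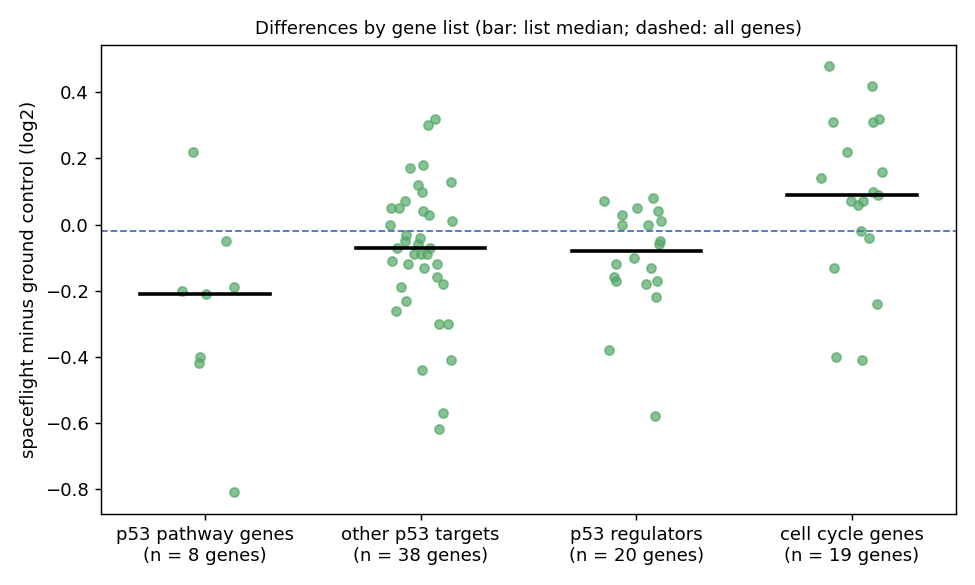
Spaceflight minus ground control (log2, vertical axis) for each measured gene of the 4 lists, with black bars at list medians and a dashed line at the median of all genes. The 8 p53 pathway genes have a median of -0.21, further targets -0.07, regulators -0.08 and cell cycle genes 0.09.

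The genes whose profile over the 8 mice was nearest to that of Phlda3 were Cdr2, Cebpa, Zbtb7b, Slc2a4 and Mgll, in that order. Likeness was the root mean square difference between values centred on each gene's own mean, over 4896 genes whose SD was at least 50% of that of Phlda3. It was 0.070 log2 units for Cdr2 and 0.135 to 0.142 for the others. Cdr2 read 5.64, 6.36, 6.47 and 6.56 in the flown mice and 6.88, 7.01, 7.45 and 7.07 in the controls. Cdr2 encodes a cytoplasmic protein known as an autoantigen of cerebellar degeneration, and Zbtb7b encodes Th-POK, the factor that commits thymocytes to the CD4 lineage. Cebpa is a transcription factor of fat cells among other types, Slc2a4 encodes the insulin-responsive glucose transporter of fat and muscle, and Mgll is a lipase that releases fatty acids from monoglycerides. All 5 had flown replicate 1 lowest and control replicate 3 highest, as Phlda3 did. They were selected for that profile, so their differences (-0.84 to -0.57) support nothing further.

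Markers of some other cell types also had lower means in the flown mice. The mean log2 level of 7 measured fat cell markers of 8 listed was 7.35 to 8.31 in flown mice and 8.37 to 8.88 in controls, and 7 of 7 had a lower mean (53.5% of all genes did), with 0 passing limma and 4 lower at an unadjusted p under 0.05 (7.38% of all genes). Their median difference was -0.62, and without spaceflight replicates 1 and 3 it was -0.42, with 5 of 7 lower. The 8 cortical epithelium markers had a mean level of 8.18 to 8.53 in flown mice and 8.66 to 8.79 in controls, with 7 of 8 lower, 0 passing limma and 4 lower at an unadjusted p under 0.05 (again beside 53.5% and 7.38% of all genes). Their median was -0.30, and without those 2 mice it was -0.13, with 4 of 8 lower. The 8 medullary epithelium markers had overlapping mean levels (6.87 to 7.46 against 7.39 to 7.66), with 8 of 8 lower, 0 passing limma and 4 at an unadjusted p under 0.05. Their median was -0.36, and -0.13 without those 2 mice, with 7 of 8 lower. The 9 double-positive thymocyte markers overlapped slightly in level (9.94 to 10.13 against 10.11 to 10.21), with 9 of 9 lower, 0 passing limma and 1 at an unadjusted p under 0.05. Their median was -0.15, and -0.06 without those 2 mice, with 8 of 9 lower. Mean levels of the other 7 lists overlapped too, and 0 of their genes passed limma. Of muscle markers 8 of 8 were lower (53.5% of all genes), with a median of -0.38, and -0.17 without those 2 mice. In the same order, red cells (4 of 4 lower) had -0.07 and -0.25, and endothelium (7 of 8) -0.15 and 0.02. Macrophages and dendritic cells (6 of 8) had -0.22 and 0.17, and fibroblasts (6 of 8) -0.03 and 0.18. Mature thymocytes (5 of 7) had -0.14 and -0.01, and B cells (4 of 7) -0.01 and 0.22. The part of these cell types in the differences of Phlda3, Zmat3 and Tnfrsf10b was not tested.

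**Figure D5:**
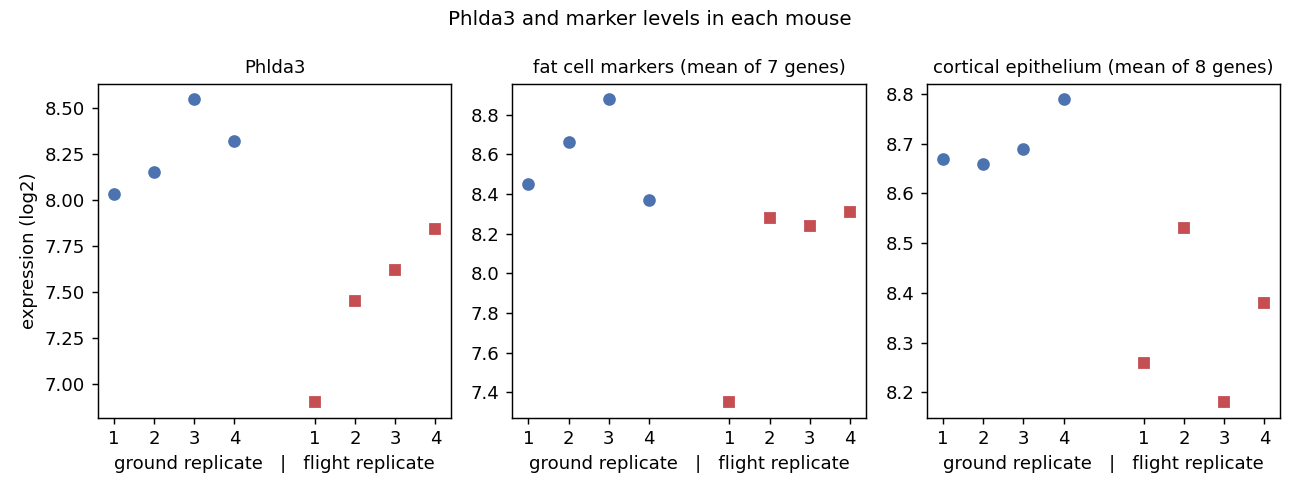
Log2 level in each mouse (horizontal axis: replicate, blue circles for ground control and red squares for spaceflight; each panel has its own vertical axis) of Phlda3, of the mean of 7 fat cell markers and of the mean of 8 cortical epithelium markers. In each panel the flown mice lie below the controls, and flown replicate 1 is lowest for Phlda3 and the fat markers but not for the epithelium markers.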

How the data were processed

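Thymus RNA of 8 mice was measured on Affymetrix arrays, from 6 µg of total RNA each per the labels' protocols. What the authors deposited is a table of log2 expression per probe set. RMA, which usually includes quantile normalization across arrays, and limma appear in the submitters' processing notes. Their versions, the build and any filter are not given in the sources used here. Over the 28943 probe sets left after controls were removed, the arrays did not share 1 distribution (interquartile ranges 2.43 to 2.95). The spread of the whole deposited table was not computed. Values are relative within an array, so a general shift in RNA cannot be seen. A run of 6614 probe sets with the lowest identifiers had no gene and was left out as controls. Of the other 28943 probe sets, 21789 had 1 gene in the platform annotation, 1621 had several and 5533 none. Symbols were updated through Entrez identifiers with RefSeq's GRCm38.p6 table (21698 matched), giving 19938 genes, each at its probe set of highest mean.

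Groups came from the sample titles. Differences were fitted over all genes with limma 3.58.1 in R 4.3.3 (lmFit, eBayes, a two-sided test without a replicate block) and p-values adjusted by Benjamini-Hochberg. The fit was tested on simulated data. Precision is limited by the number of arrays. The text names all members, the 4 genes of smallest p of each p53 list and the 5 genes most like Phlda3. Gadd45a, Sesn2, Perp, Eda2r, Ei24, Rps27l, Fas, Mdm4, Ercc5, Rag1, Ptcra and Cd8a were picked outside this rule, with their values in view. The search for genes most like Cdkn1a was not possible without a value for it. Members and lists were chosen with earlier results of these data known. The promoter motif search used Python 3.11.15.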

Additional observations from a re-analysis of the deposited data

Results flagged for a closer look

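In a group of 4, a mouse was picked out when its gap to the nearest of the others, as a share of the group's range, passed Dixon's 95% critical value. Of 50 gene and group combinations checked (the members, the named list genes and the genes most like Phlda3), 2 passed. Chance gives about 1 in 20 for genes chosen without regard to their values. The list genes and those most like Phlda3 were chosen by their values, so that rate does not hold for them. Tnfrsf10b was low in ground-control replicate 4, at 5.80 against 5.94 to 5.97 in the other controls (share 0.839). That mouse was still above every flown mouse. Mgll was low in spaceflight replicate 1, at 6.75 against 7.80 to 7.98 in the other flown mice (share 0.858). Mgll was picked for its likeness to Phlda3, which was also lowest in that mouse.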

How the results depend on the processing

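None of the 8 genes passed limma under any of the 20 alternatives (19 planned and cyclic loess normalization, chosen after seeing the data). Phlda3 came nearest, at an adjusted p of 0.0821 with the replicate number as a block. Phlda3, Zmat3, Tnfrsf10b, Mdm2, Ccng1 and Aen stayed lower and Sesn1 higher under every alternative that gave a value. The filter at a mean of 6 left Tnfrsf10b without one. Trp53inp1 turned to 0.09 with 75th percentile centring, 0.02 with repeated quantile normalization and 0.01 with cyclic loess normalization. The median over the 8 genes, -0.21, was -0.07, -0.11 and -0.13 under these. 75th percentile centring also raised the median of all genes to 0.12. Measured from the median of all genes, that of the 8 was -0.19 as reported, and -0.19 with either centring, which shifts all genes of an array alike. It was -0.12 with repeated quantile normalization, -0.13 with cyclic loess and -0.14 with genes of mean at least 5. With genes of mean at least 6 it was -0.09, over the 7 members left without Tnfrsf10b.

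Over all genes, 16 were called by limma (3 higher, 13 lower). With 75th percentile centring 6 were (3 higher, 3 lower), and with genes of mean at least 6 there were 25. Leaving out 1 mouse gave 6 to 15 calls, fewest without ground-control replicate 3. The median over the 8 genes then ran from -0.25 to -0.17. The labels do not say that replicate numbers pair the mice. Same-numbered arrays' deviations from their group means correlated at 0.243, -0.296, -0.098 and 0.069, which cannot settle whether they do. With the replicate block, 20 genes and 0 of the 8 were called.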
